A study of Mus musculus with 4 samples.

Results

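The Hox clusters examined here are 4 intervals of the mouse genome (build mm9): HoxA at chr6:52100000-52215000, HoxB at chr11:96050000-96232000, HoxC at chr15:102750000-102870000 and HoxD at chr2:74500000-74610000. Every position listed within these bounds was a member, whatever its value, which gave 576 sites of 472220 in all. The first wild-type library contributed 357 sites, the second 152, the control shRNA library 41 and the Tdg shRNA library 26. The study mapped 5-formylcytosine (5fC) and 5-carboxylcytosine (5caC) at single CpGs in the mouse embryonic stem cell line E14 by methylation-assisted bisulfite sequencing (MAB-Seq). Whole genomes of wild-type cells were sequenced in 2 libraries. The other 2 were reduced-representation libraries from MspI-cut DNA, 1 from E14 cells with a control shRNA and 1 from E14 cells with an shRNA against Tdg. The labels do not say whether the 2 wild-type libraries came from separate cultures, and each shRNA group had 1 library, so no difference between the shRNA groups has a replicate check. The remaining Tdg RNA or protein was not measured in these files.

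Hox genes encode homeodomain transcription factors that give cells their position along the body axis, and they stand side by side in clusters that are rich in CpGs. In embryonic stem cells most of them are held silent by Polycomb complexes and carry little DNA methylation at their CpG islands. TET enzymes oxidise 5-methylcytosine stepwise to 5-hydroxymethylcytosine, 5fC and 5caC, and TDG, a DNA glycosylase, excises the last pair so that unmodified cytosine can be restored. In MAB-Seq the CpG methyltransferase M.SssI first methylates unmodified CpGs. A CpG cytosine that bisulfite still converts then carried 5fC or 5caC, or escaped M.SssI. A site's level means the percentage of converted reads after the authors' background subtraction. The second wild-type library was deposited with a p-value per site and no level.

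No genome of build mm9 was used here, so genes were placed by sequence: the spacing of listed CpGs and the bases printed beside them in the first library were searched for in the RefSeq promoters of build GRCm38.p6, each from 250 bases before to 50 after the start. Of 32851 promoters, the listed CpGs of HoxD matched those of Hoxd9 and Hoxd1, which encode HoxD homeodomain proteins, and that of Gm38462, a long noncoding RNA whose matched window lies within the bounds of Hoxd8 in that build. No promoter matched in HoxA, HoxB or HoxC, which says only that a long enough pattern of listed CpGs was not found in these windows. Only 3 of 10 HoxB genes and 1 of 9 HoxC genes had a promoter among those searched. The 250 bases before each start are shown because they are where listed sites could be tied to a gene. They are written 5′ to 3′ on the gene's strand (plus for Hoxd9 and Hoxd1, minus for Gm38462), with the listed CpGs in capitals.
Hoxd9: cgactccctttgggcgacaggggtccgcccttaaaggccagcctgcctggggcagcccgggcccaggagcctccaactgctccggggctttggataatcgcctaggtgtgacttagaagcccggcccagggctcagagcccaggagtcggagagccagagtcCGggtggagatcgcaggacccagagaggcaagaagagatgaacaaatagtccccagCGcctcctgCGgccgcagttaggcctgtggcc
Hoxd1: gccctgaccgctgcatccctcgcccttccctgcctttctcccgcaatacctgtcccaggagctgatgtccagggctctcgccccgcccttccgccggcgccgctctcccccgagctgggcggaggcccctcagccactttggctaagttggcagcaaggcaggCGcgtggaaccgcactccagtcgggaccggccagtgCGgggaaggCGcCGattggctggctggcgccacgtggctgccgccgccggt
Gm38462: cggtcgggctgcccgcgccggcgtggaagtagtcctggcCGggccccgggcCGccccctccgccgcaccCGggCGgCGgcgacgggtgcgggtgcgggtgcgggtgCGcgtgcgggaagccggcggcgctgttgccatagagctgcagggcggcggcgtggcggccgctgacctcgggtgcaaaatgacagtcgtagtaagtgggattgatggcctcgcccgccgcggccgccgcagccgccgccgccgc

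The Hoxd9 stretch held 13 CpGs, of which 3 were listed, and another listed CpG lay 16 bases after the start. All were sites of the first library, with levels of 7.42%, 7.94%, 9.79% and 11.9% at 88, 32 and 23 bases before the start and at the one after it (chr2:74535732-74535836). These values are close together and all are above 0. At Hoxd1, with 24 CpGs in the stretch, the first library listed 4 CpGs at 6.29%, 13.4%, 36.6% and 0%, 87, 51, 42 and 39 bases before the start (chr2:74600950-74600998). The CpG at 36.6% and the one at 0% are 3 bases apart. The second library listed a plus-strand site 44 bases after the Hoxd1 start, where 4 of 16 reads were converted and the authors' p-value was 0.00263.

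The Gm38462 stretch held 42 CpGs, of which 6 were listed at chr2:74543801-74543868. The first library listed 2 of them, both at 0%. The second library listed the other 4 on the minus strand, with 4 of 20, 7 of 19, 6 of 13 and 4 of 11 reads converted at -174, -177, -199 and -211 bases from the start. No CpG in the 3 stretches was listed by both wild-type libraries, and none by a shRNA library.

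**Figure D1:**
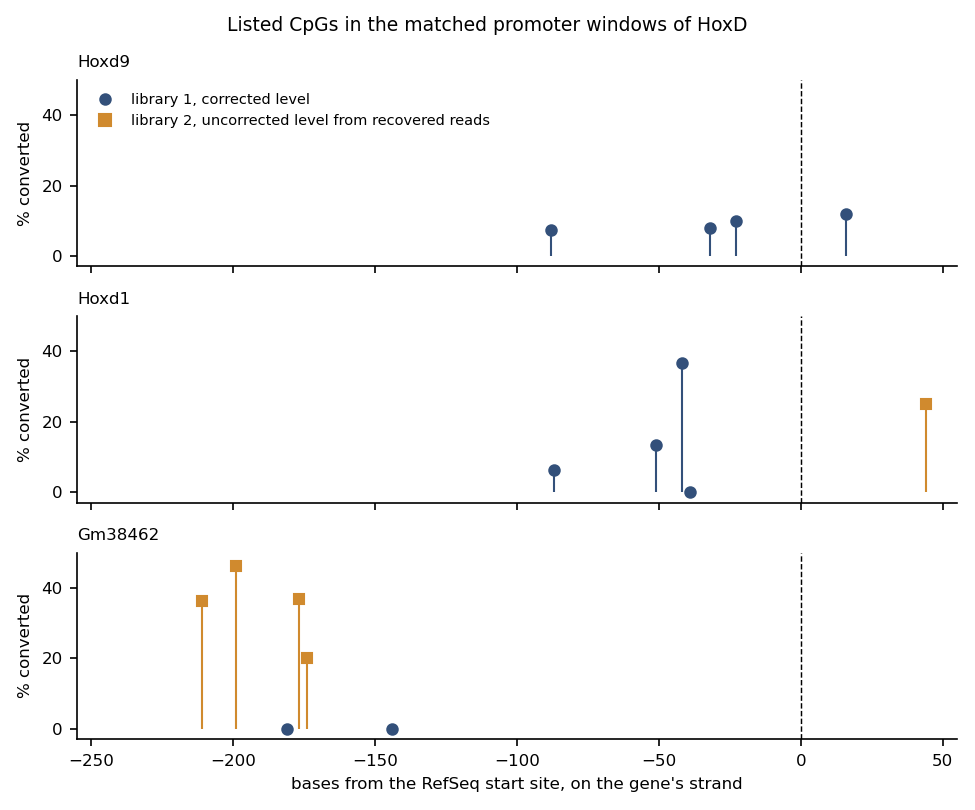
Percentage of converted reads (vertical axis) at the listed CpGs of 3 promoter windows in HoxD, against the distance in bases from the RefSeq start (horizontal axis, dashed line at the start). Circles are corrected levels of the first wild-type library and squares are uncorrected levels from the reads recovered for the second, so the 2 kinds of point are not on one scale. The 4 circles at Hoxd9 lie between 7.42% and 11.9%, and both circles at Gm38462 lie at 0%.

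CpGs were frequent in Hox promoters of the same table. Of the 39 genes in the 4 clusters, 22 had an entry, with 24 promoters and a median of 14.5 CpGs per promoter (4 to 45), against 7 over all promoters. CCGG, the letters MspI cuts, occurred in 19 of the 24 (79.2%) and in 52.8% of all promoters. Only 3 HoxB genes and 1 HoxC gene had an entry, so these values describe mainly HoxA and HoxD, with 9 genes each.

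Listed sites were denser inside every Hox interval than in the 500 kb on each side of it, in every library. In the wild-type libraries HoxD and HoxA stood furthest above their surroundings. HoxB had the lowest ratio in every library. In the first wild-type library HoxD held 103 CpGs (936.4 per Mb) against 100 in its flanks, a density 9.36 times as high (95% interval 7.04 to 12.5). HoxA also held 103, against 127 in its flanks, or 7.05 times (5.38 to 9.22). HoxC held 62 against 217, or 2.38 times (1.77 to 3.17). HoxB, the longest interval, held 89 against 238, or 2.05 times (1.59 to 2.63). Over the 4 intervals the ratio was 3.97 (3.49 to 4.52). All intervals of this kind cover counting error only and treat neighbouring sites as independent, which sites on the same reads are not.

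The second wild-type library ranked the 4 clusters in the same order. It listed 39 sites in HoxD against 34 in the flanks, 10.4 times the density (6.41 to 17.0), and 38 in HoxA against 52, or 6.35 times (4.07 to 9.84). HoxC had 31 against 76, or 3.399 times (2.16 to 5.22), and HoxB 44 against 123, or 1.97 times (1.36 to 2.79). The 4 intervals together were at 4.05 times their flanks (3.30 to 4.95). With a p-value of at most 1e-04, the ratio was 2.75 for HoxA (0.898 to 7.15), 2.09 for HoxB (0.802 to 4.92) and 2.22 for HoxC (0.537 to 6.98), all with intervals that include 1. It was 18.2 for HoxD (3.88 to 112.4) and 3.14 over the 4 clusters (1.87 to 5.13).

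The flanks differed from one another as well. The flanks of HoxD held 100 CpGs per Mb in the first library and those of HoxA 127, below the 135.1 per Mb over the autosomes. The flanks of HoxB held 238 and those of HoxC 217, above it. The clusters themselves ranged from 489 per Mb in HoxB to 936.4 in HoxD.

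In the MspI libraries the counts were small and the intervals wide. The control shRNA library listed 11, 12, 13 and 5 sites in HoxA, HoxB, HoxC and HoxD, against 6, 14, 8 and 6 in their flanks, with density ratios of 15.9, 4.71, 13.5 and 7.58. The Tdg shRNA library listed 7, 9, 6 and 4 sites, against 1, 10, 4 and 3 in the flanks, with ratios of 60.9, 4.95, 12.5 and 12.1. Over the 4 intervals the ratio was 9.15 (5.67 to 14.9) for the control shRNA and 10.96 (5.78 to 21.2) for the Tdg shRNA library. These ratios also carry the density of MspI sites, whose part was not tested.

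**Figure D2:**
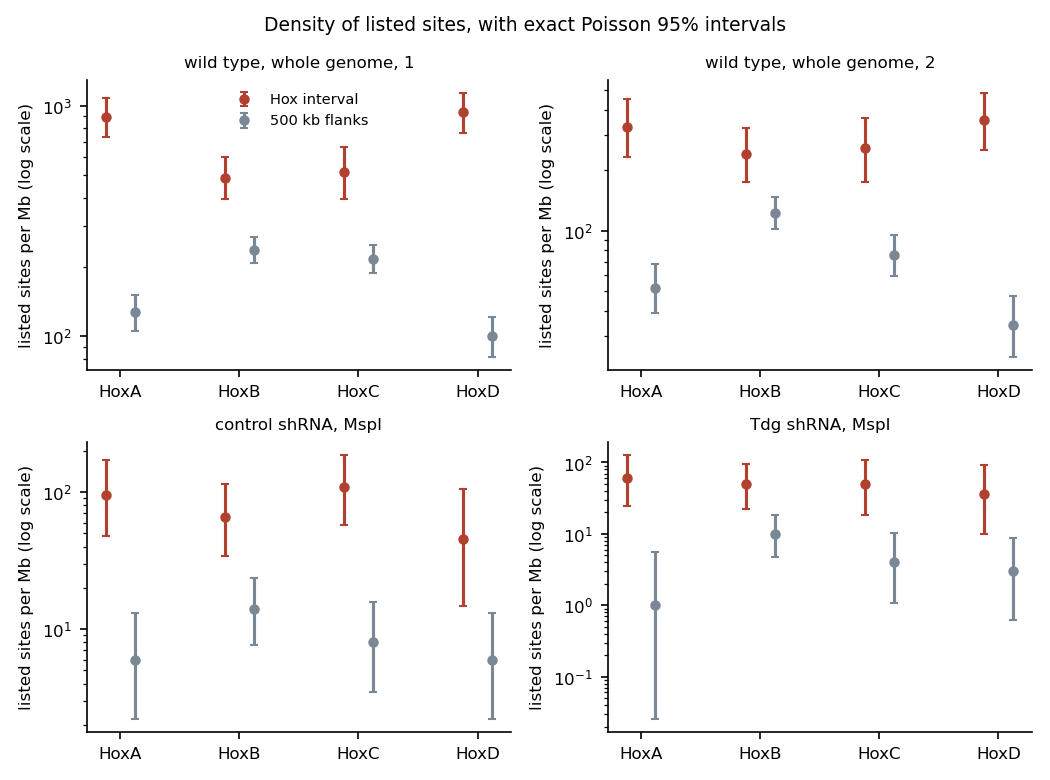
Listed sites per Mb on a log scale (vertical axis) in each Hox interval and in its 500 kb flanks, 1 panel per library, with exact Poisson 95% intervals as bars. The point of the Hox interval lies above that of its flanks in all 4 panels, by the most for HoxD and HoxA in the 2 wild-type libraries.

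An exact two-sided sign-flip permutation test of the log ratios over the 4 clusters gave p = 0.125 in each library, the smallest p that 4 clusters allow, and 0.208 after Benjamini-Hochberg adjustment over the 10 such tests made. With 4 clusters this test cannot reach the usual threshold. As a second measure of spread, windows of the length of each cluster were laid through its flanks, 8 for HoxA, HoxC and HoxD and 4 for HoxB. In the first library the fullest held 29, 61, 49 and 28 sites for HoxA, HoxB, HoxC and HoxD, all fewer than the cluster. In the second library the fullest held 15, 25, 17 and 14. Of all libraries and clusters, only HoxD in the control shRNA library had a flank window, 1 of 8, that held as many sites as the cluster (5). The number of CpGs per interval was not used here, and its part in the density was not tested.

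With strands merged and all libraries pooled, 536 CpGs of the clusters and 958 of the flanks were listed, or 1017 and 239.5 per Mb, a ratio of 4.25 (3.81 to 4.73). HoxA had 150 such CpGs, HoxB 140, HoxC 102 and HoxD 144. The union is mainly the first library's list: of the 536 CpGs, 496 were listed in 1 library, 40 in 2 and 0 in 3 or more.

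Within the clusters the sites were unevenly spread. In windows of 10 kb the first library listed a median of 7.5 CpGs in HoxA (1 to 23), 4 in HoxB (0 to 12), 4 in HoxC (1 to 15) and 11 in HoxD (1 to 18). The fullest window of HoxA, chr6:52150000-52159999, held 23 CpGs of the first and 11 sites of the second library. In HoxB, chr11:96160000-96169999 held 12 in each library. The fullest HoxC window, chr15:102760000-102769999, held 15 and 3. In HoxD, chr2:74530000-74539999, which includes the Hoxd9 match, held 18 and 4, whereas chr2:74540000-74549999, with the Gm38462 match, held 4 and 10. Over all 53 windows the counts of both wild-type libraries had a Spearman rho of 0.58, given as a description because windows share the underlying CpGs.

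The HoxD stretch did not end at the bound of its interval. The 10 kb before it, chr2:74490000-74499999, held 24 CpGs of the first library, 8 of the second and 3 of the control shRNA library, more than any window inside in the first library. Their median level was 16.6%. Without the 10 kb next to the interval on either side, the HoxD ratio was 12.1 in the first library and 13.4 in the second. At the other 7 edges the neighbouring 10 kb held 0 or 1 site in each library. In the right flank of HoxA, 10 kb windows centred 105 and 505 kb from the centre of the interval held 14 and 12 sites of the first library, and 12 and 5 of the second.

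**Figure D3:**
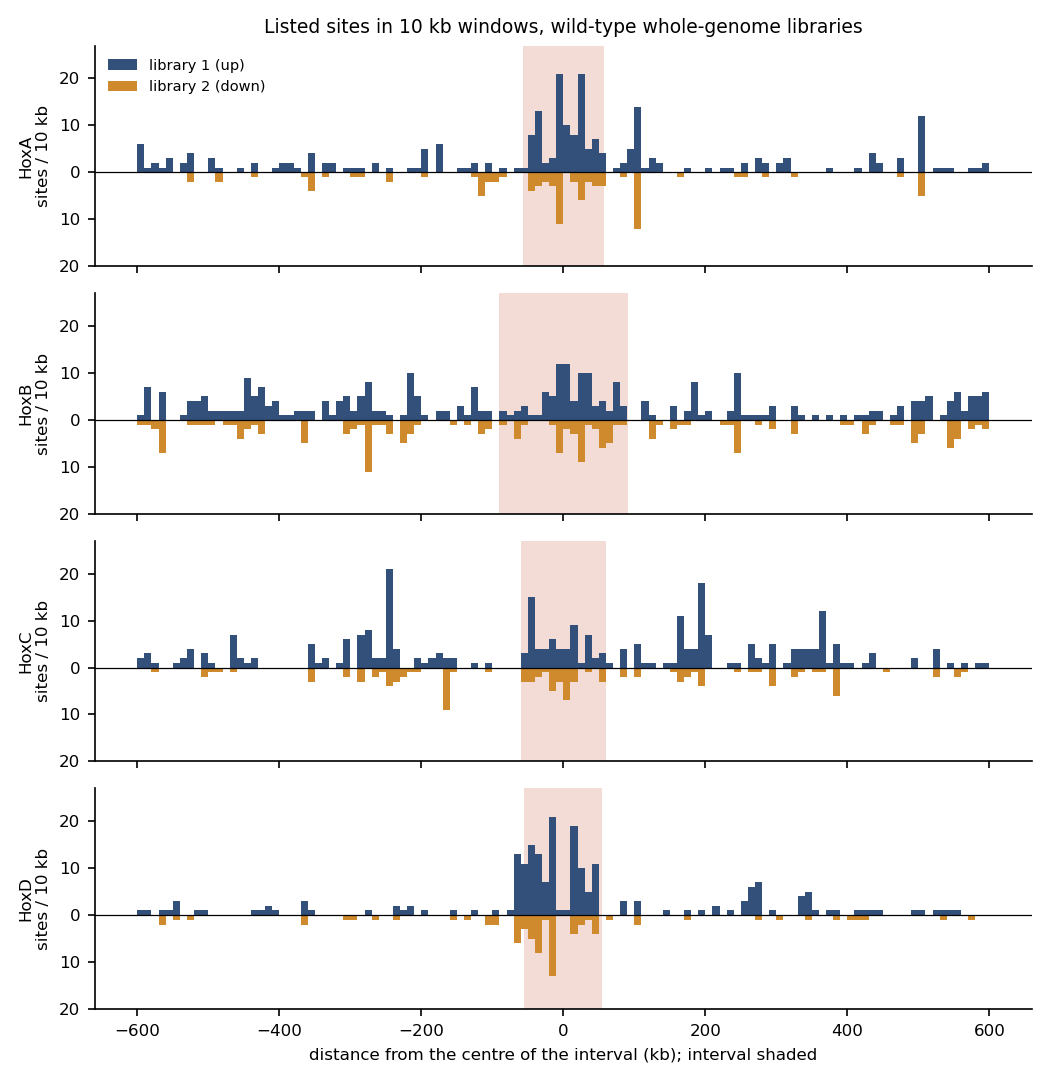
Listed sites per 10 kb window (vertical axis; first wild-type library upwards, second downwards) against the distance in kb from the centre of each Hox interval (horizontal axis; interval shaded). Windows are counted from the centre, so their counts differ from those of windows aligned to round positions. HoxA and HoxD rise from sparse flanks, whereas HoxB and HoxC lie among other dense windows.

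Neighbouring sites lay closer together in the clusters. In the first library the median distance between neighbours was 114 bp in the clusters and 1002 bp in the flanks. It was 55 bp in HoxD, 111.5 bp in HoxA, 138 bp in HoxC and 388 bp in HoxB. Of the gaps between neighbours, 48.7% in the clusters and 31.3% in the flanks were at most 100 bp. The corresponding medians of the second library were 591 and 2826 bp. Its gaps of at most 100 bp made up 31.1% in the clusters and 26.7% in the flanks. By cluster this share was above that of the flanks in HoxB (30.2% against 24.8%) and HoxD (42.1% against 21.9%). It was below in HoxA (32.4% against 40%) and HoxC (16.7% against 23.0%).

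Unbroken runs of listed CpGs, at most 5 bases apart from one to the next, show the close spacing of the first library at its tightest. A pair of runs of 5 or more was found, and they are shown because their bases, read from the overlapping contexts of the first library, consist almost wholly of C and G. Capitals mark the listed CpGs, on the plus strand of mm9.
HoxA run: cgCGCGCGCGCGc
HoxD run: gcCGCGggCGCGCGCGCGCGCGCGt

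The HoxA run, chr6:52150524-52150536, held 5 listed CpGs, of which the third had a level of 70.5% and the other 4 were at 0%. The HoxD run, chr2:74571287-74571311, held 10 listed CpGs with a median level of 12.01%. Its first 9 had levels between 8.45% and 20.9%, and the last, before the closing t, had 85.9%. The second library listed 3 of these 10: 6 of 29 reads were converted at 74571301, 6 of 26 at 74571307, and the p-value was listed as 0 at 74571309. The CpG at 74571309 thus had the highest level of the run in the first library and the smallest p-value in the second. Such runs held 15 of 357 listed CpGs in the clusters (4.20%, 2.37 to 6.84), 7 of 682 in the flanks (1.03%, 0.414 to 2.10) and 1.48% over the whole list of the first library. CpGs of a run share reads, so these counts are not independent, and how well reads of such sequence align was not tested.

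The levels themselves differed little between clusters and flanks. In the first library the median was 10.8% in the clusters (9.79 to 12.1) and 11.1% in the flanks (10.5 to 11.9). It was 12.3% in HoxA against 10.7% in its flanks, 10.6% against 12.2% for HoxB, 10.98% against 9.28% for HoxC and 10.5% against 13.1% for HoxD. The difference was upward in 2 clusters and downward in 2 (exact sign-flip permutation test, two-sided, p = 1). Levels of 50% or more were found at 14 of 357 CpGs in the clusters and 26 of 682 in the flanks, 3.92% and 3.81%.

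CpGs listed at a level of exactly 0 were more frequent inside the clusters. They made up 98 of 357 (27.5%, 22.9 to 32.4) against 126 of 682 in the flanks (18.5%, 15.6 to 21.6) and 20.1% of the first library as a whole. HoxD had the widest gap, with 29.1% (20.6 to 38.9) against 10% (4.90 to 17.6). Its flank share lay below that of the whole list. Of the 100 CpGs in the HoxD flanks, 24 lay in the 10 kb before the interval, and the share without them was not computed. HoxA had 30.1% against 18.9%, HoxC 29.0% against 24.4% and HoxB 21.3% against 16.4%, and in these 3 the intervals overlapped. All 4 clusters were above their flanks (exact sign-flip permutation test, two-sided, p = 0.125, the smallest possible). Among CpGs above 0, the median was 13.6% in the clusters and 13.1% in the flanks. For HoxA alone it was 16.5% (13.4 to 19.1) against 11.9% (10.8 to 13.1), and for HoxC 13.6% against 12.3%. It was lower than in the flanks in HoxB (12.6% against 13.9%) and in HoxD (13.5% against 14.4%). The difference was thus upward in 2 of 4 clusters (exact sign-flip permutation test, two-sided, p = 0.75). In HoxA the values above 0 were higher than in its flanks, and its larger share at 0 had an interval overlapping that of the flanks. Why a file lists a position at 0 is not given in the sources used here.

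The bases next to the CpG differed as well. A G or C on both sides was found at 51.3% of cluster CpGs (45.9 to 56.6), 34.8% of flank CpGs (31.2 to 38.5) and 35.3% over the whole list. HoxD had the largest share of the 4, 64.1% (54.0 to 73.3) against 35% in its flanks, followed by HoxC with 54.8% against 37.8%, HoxB with 46.1% against 32.8% and HoxA with 40.8% against 33.1%. In HoxA, HoxB and HoxC the intervals of cluster and flanks overlapped. The difference was in the same direction in all 4 clusters (exact sign-flip permutation test, two-sided, p = 0.125). In HoxD, GCGG stood at 23, GCGC at 21 and CCGG at 15 of the 103 CpGs. An A or T on both sides was found at 8.68% of cluster and 17.0% of flank CpGs.

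Zeros were also compared at equal bases. The share at 0 that the cluster CpGs would have if each context had its share over the whole list was 20.7%, against 19.9% for the flanks, while 27.5% and 18.5% were observed. Within CpGs with G or C on both sides, 26.2% were at 0 in the clusters and 18.1% in the flanks. By cluster this share was 38.1% against 26.2% in HoxA, 14.6% against 10.3% in HoxB and 25.8% against 5.71% in HoxD. In HoxC it was not higher, at 26.5% against 26.8%. The intervals of cluster and flanks overlapped for the pooled shares and in each cluster. Within CpGs with A or T on both sides the share at 0 was 11 of 31 (35.5%) in the clusters against 11.2% in the flanks.

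**Figure D4:**
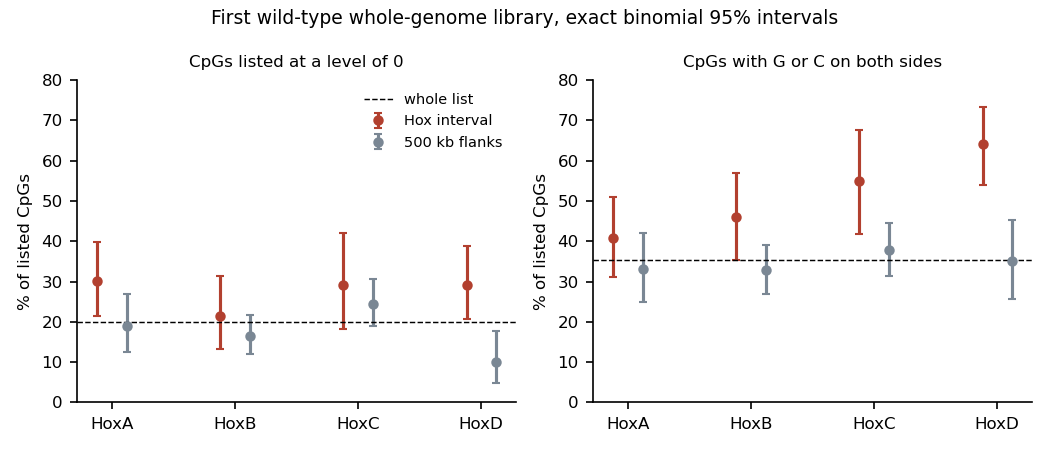
Percentage of CpGs of the first wild-type library listed at a level of 0 (left) and with G or C on both sides (right), for each Hox interval and its 500 kb flanks, with exact binomial 95% intervals as bars and the value of the whole list as a dashed line. The share at 0 in HoxD is 29.1% against 10% in its flanks, and the share with G or C on both sides reaches 64.1% in HoxD.

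In the second library the median strength of the listed sites was alike in clusters and flanks, but the share of strong sites was not alike everywhere. The authors' median p-value was 0.00203 in both. A p-value of at most 1e-04 was found at 15.8% of cluster sites and 20.4% of flank sites. These shares were 15.8% and 36.5% for HoxA and 12.9% and 19.7% for HoxC. They were 18.2% and 17.1% for HoxB and 15.4% and 8.82% for HoxD. Reads could be recovered for 144 of the 152 cluster sites, with a median of 13 reads (10 to 39) of which a median of 4 were converted, and for 258 of 285 flank sites, with a median of 14 reads. The median uncorrected level was 27.3% in both. A p-value listed as 0 was found at 4 cluster sites (2.63%), 1 in each cluster, and at 21 flank sites (7.37%). Sites with a p-value of at most 1e-07 have no recovered reads, so these medians leave them out. Their levels in this library are unknown and may be among the highest.

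Strand was known in this library. In HoxA 30 of 38 sites lay on the plus strand (78.9%, 62.7 to 90.4), against 46.2% in its flanks and 59265 of 118502 over the library. In HoxB it was 56.8%, in HoxC 41.9% and in HoxD 38.5%, each with an interval that includes 50%. Not one of the clusters' CpGs was listed on both strands, and among the 285 flank sites only 1 CpG was. RefSeq places the HoxA genes on the minus strand and those of the other clusters on the plus strand. Counted against gene direction, a split chosen after the values were seen, 91 of 152 sites (59.9%, 51.6 to 67.7) lay on the strand opposite to the genes: 30 of 38 in HoxA, 19 of 44 in HoxB, 18 of 31 in HoxC and 24 of 39 in HoxD. In HoxB, HoxC and HoxD the interval of this share includes 50%. All of these strand intervals treat sites as independent, although close sites can share reads of 1 strand. Of the 38 HoxA sites, 11 lay in chr6:52150000-52159999.

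At single CpGs the wild-type libraries shared similar parts of their lists inside and outside the clusters. Of the second library's plus-strand sites, 22 of 83 in the clusters (26.5%, 17.4 to 37.3) were listed by the first, 41 of 135 in the flanks (30.4%), and 35.3% over the series. By cluster it was 8 of 30 in HoxA, 7 of 25 in HoxB, 4 of 13 in HoxC and 3 of 15 in HoxD. Seen from the first library, 31 of 357 cluster CpGs (8.68%) and 55 of 682 flank CpGs (8.06%) were in the second on either strand. When sites within 100 bp counted as shared, the second library had a partner in the first for 63.2% of its cluster sites (54.96 to 70.8) and 48.1% of flank sites (42.1 to 54.0). Sites also lie closer together in the clusters, and the part of that in this share was not tested. The number of CpGs covered in each library is unknown, so no overlap by chance is given.

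The strand of the second call went with the level of the first. All 22 CpGs called on the plus strand had a level above 0 in the first library, which reads the plus strand, with a median of 13.8% (7.01% to 100%). Of the 9 called on the minus strand, 6 were at 0% there. The flanks were similar, so this was not particular to the clusters. There 1 of 41 CpGs called on the plus strand was at 0%, with a median of 13.2%. Of 15 called on the minus strand, 6 were at 0%, with a median of 2.99%.

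Single CpGs found in both wild-type libraries include the strongest of HoxA, at chromosome 6 position 52153959, with the bases GTCGG, a level of 100% and a p-value listed as 0. At 52114423 the level was 13.4% and the p-value 2.66e-09, and at 52120226 the values were 9.38% and 5 of 15 reads. The first of these is therefore far above the other 2 in the first library. In HoxB, position 96160777 of chromosome 11 had 39.4% and 6 of 15 reads on the plus strand, and 96194483 had 25.8% and 7 of 19 reads on the minus strand. In HoxC, position 102797326 of chromosome 15 had 26.4% and 4 of 10 reads on the plus strand, and 102812539 had 31.2% and 5 of 20 on the minus strand. Minus-strand calls of HoxC at 102865268 (5 of 17 reads) and 102767513 (5 of 21 reads) were at 0% in the first library. In HoxD, 2 minus-strand calls, at 74520562 (6 of 32 reads) and 74584926 (5 of 28 reads) of chromosome 2, were at 0% in the first library.

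The highest level of the first library and the smallest p-value of the second met at one CpG in HoxA and in HoxD (74571309), but not in the others. In HoxB the highest level was 94.5% at 96087303, with the bases TACGC, and the p-value of 0 stood at 96148364. In HoxC the level of 100% was at 102767422, with the bases GCCGC, and the p-value of 0 at 102792380 on the minus strand.

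Median levels in the MspI libraries did not differ between clusters and flanks beyond their intervals. The control shRNA median was 9.89% in the clusters (5.97 to 14.2) and 6.17% in the flanks (5.03 to 8.04), upward in 3 of 4 clusters (exact sign-flip permutation test, two-sided, p = 0.25, where 0.125 is the smallest possible). With flanks of 1 Mb the difference of the control shRNA medians was 0.51 percentage points in place of 3.72. The Tdg shRNA median was 13.4% (8.52 to 15.4) and 11.9% (8.89 to 15.4), upward in 2 of 4 (p = 1 in the same exact test). The highest control shRNA levels were 82.1% in HoxA, 100% in HoxB, 16.6% in HoxC and 27.9% in HoxD. Those of the Tdg shRNA library were 38.0%, 55.7%, 13.8% and 20.5%. HoxC and HoxD thus had no site of 50% or more in either shRNA library.

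The next highest sites were lower. In the control shRNA library HoxA went on with 24.1% at 52194728, 19.9% at 52166967, 18.9% at 52202820 and 17.6% at 52179272. HoxB went on, after a pair at 57.6%, with 15.7% at 96147449 and 10.3% at 96064941. HoxC had 16.6% at 102767374, 15.2% at 102797315 and 14.2% at 102757767. The HoxD sites formed 2 groups: 27.9%, 17.6% and 6.37% at 74520533, 74520523 and 74520717, and 10.1% and 6.17% at 74506753 and 74506548.

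In the Tdg shRNA library HoxA went on with 13.8% at both 52203563 and 52203607, 12.5% at 52135401 and 10.1% at 52150332. HoxB went on with 27.6% at 96131514, 24.8% at 96211433, 22.4% at 96211423 and 15.4% at 96147832. HoxC had 13.8% at both 102767590 and 102799251, 8.52% at 102765510 and 6.93% at 102797321. The 4 HoxD sites were 20.5% at 74536332, 12.5% at 74536323, 17.3% at 74588428 and 13.8% at 74591553. The HoxC sites at 102797315 in the control and 102797321 in the Tdg shRNA library are near each other but not at the same base.

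Both shRNA libraries listed 6 cluster CpGs. They were 23.1% of the 26 Tdg shRNA sites (8.97 to 43.6), against 11.1% in the flanks and 17.5% over the series. Of the 41 control shRNA sites they were 14.6% (5.57 to 29.2), against 5.88% and 12.2%. These shares differ by less than their counting error. In HoxA, 52141852 had 82.1% with the control shRNA and 38.0% with the Tdg shRNA. In HoxB, 96125647 had 100% and 55.7%, 96211423 had 57.6% and 22.4%, and 96211433 had 57.6% and 24.8%. In HoxC, 102769182 had 13.5% and 6.26%, and 102769190 had 10.8% and 6.26%. All 6 were lower with the Tdg shRNA, as were 2 of 2 in the flanks (37.8% to 16.3% beside HoxB and 15.7% to 12.5% beside HoxC). Over the series 802 of 1567 shared sites (51.2%) were lower with the Tdg shRNA, 473 (30.2%) were higher and 292 were equal. The last 2 pairs of cluster sites lie 10 and 8 bases apart and can share reads, so the 6 sites come from 4 places, and with 1 library per group there is no test.

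**Figure D5:**
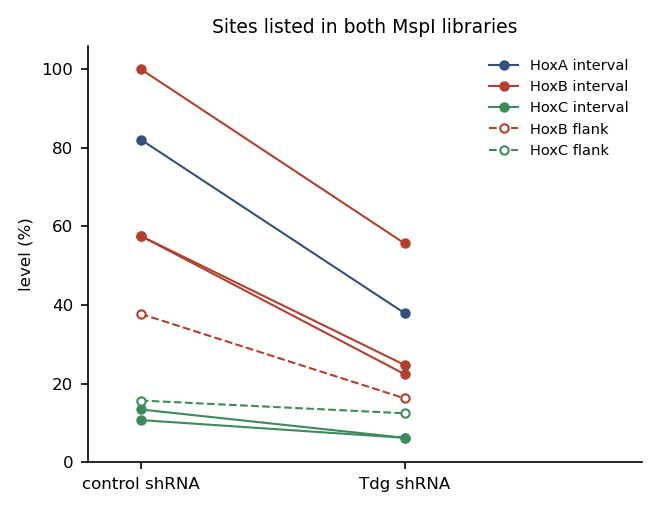
Level in percent (vertical axis) of each CpG listed in both MspI libraries, joined by a line from the control shRNA to the Tdg shRNA library (horizontal axis). Filled points are the 6 sites of the Hox intervals and open points the 2 of their flanks. All lines go down, from between 10.8% and 100% to between 6.26% and 55.7%.

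By number, the Tdg shRNA library listed 26 and the control shRNA library 41 cluster sites, a ratio of 0.634 (0.372 to 1.06), near the 0.694 of the series. At a level of 10% or more it was 17 and 18, a ratio of 0.944 (0.457 to 1.94). A wild-type library listed the same base for 0 of 26 Tdg shRNA sites in the clusters, which allows a share of up to 13.2% (exact binomial), 0 of 18 in the flanks and 14.9% over the series. For control shRNA sites it was 3 of 41 in the clusters (7.32%), 1 of 34 in the flanks and 4.92% over the series. The 3 were HoxB 96057539, with 2.84% against 8.56% in the first wild-type library, and HoxD 74506753 and 74520523, with 10.1% and 17.6% against 0% in both. None of the 6 CpGs shared by the shRNA libraries was listed in a wild-type library, and neither were the 2 shared in the flanks. The share for such sites over the series is not given here. Within 100 bp, a wild-type site lay near 10 of 26 Tdg shRNA sites in the clusters (38.5%) and 6 of 18 in the flanks. For control shRNA sites it was 15 of 41 (36.6%) and 16 of 34. The strand of a shRNA site is unknown and the depth of these libraries and of the first wild-type library is unknown, so an unlisted CpG may not have been covered.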

How the data were processed

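Genomic DNA of 4 E14 libraries was analysed. CASAVA 1.8, Bismark 0.10.1 and build mm9 are named in the submitters' processing notes; how sites were called and reads filtered is not given in the sources used here. The authors deposited a percent per site for the first wild-type and both shRNA libraries, from which backgrounds of 3%, 2.9% and 3.3% had been subtracted, read from the values. For the second wild-type library the authors deposited a p-value per site. Of its p-values above 1e-07 near the clusters, 99.8% equalled upper binomial tails at a background of 3.8% (relative tolerance 1e-08), which gave total and converted reads. The planned comparison of levels was therefore made only where levels were given. Shares have exact (Clopper-Pearson) 95% intervals, ratios of counts exact conditional binomial intervals and medians intervals from order statistics (Python 3.11.15, numpy 2.4.6, pandas 2.3.3, scipy 1.17.1), tested on simulated data. PCR copies were not told apart. Sites named were, per cluster, up to 5 found in both wild-type libraries, of which some are printed, the extremes, and up to 5 per shRNA library. Promoters were matched by at least 4 listed CpGs, 2 with bases, all fitting 1 gene only; this search, the runs of CpGs, the share at 0 from context and the count against gene direction were chosen after the values were seen. The members and lists were chosen with earlier results of these data known.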

Additional observations from a re-analysis of the deposited data

How the results depend on the processing

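Every density ratio of a cluster that could be formed stayed above 1 in each library under all settings run. The settings were flanks of 250 kb or 1 Mb, 1 flank alone, trimmed bounds, level and p-value minimums and merged strands. Flanks without the nearest 10 kb were added after seeing the data. A flank without sites gave no ratio. Merging strands could not move the first library or the shRNA libraries, which mark every site as plus. Some intervals included 1, as for HoxD in the control shRNA library with flanks of 250 kb (3.79, 0.914 to 14.9). The difference of the median levels over all clusters in the first library, -0.31 percentage points and within the intervals of the medians, turned to 0.21 with flanks of 1 Mb and 0.52 among levels above 0, and that in the control shRNA library fell from 3.72 to 0.51 with flanks of 1 Mb. Of the alternative values of the comparisons, 155 stayed close to the main one and 16 moved. With p of at most 1e-04 the second library's ratio was 2.75 for HoxA, 18.2 for HoxD and 3.14 over all clusters. Leaving out HoxA, HoxB, HoxC or HoxD changed the ratio over all clusters in the first library to 3.33, 5.25, 4.68 or 3.14, and leaving out HoxB or HoxD that in the second to 5.80 or 3.24. Without the first wild-type library the ratio of CpGs listed anywhere was 4.60 for HoxC and 4.85 over all clusters, and without the second 2.89 and 4.32; leaving out a shRNA library gave 4.13 and 4.15 over all clusters. Among levels above 0 the HoxA median lay 4.69 percentage points above its flanks. The share of second-library sites found in the first was 63.2% (clusters) and 48.1% (flanks) within 100 bp, 19.4% in the flanks with strands merged and 47.4% there at p of at most 1e-04. The cause was not tested. Density per CpG was not run, since no mm9 genome was used. Levels of the second library rest on 10 to 39 reads per site in the clusters and 10 to 54 in the flanks; with 20 or more reads the median was 20% in clusters and flanks. No paired analysis was possible because each shRNA group has 1 library and no test between groups was made.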

Other observations

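Outside the clusters, p-values listed as 0 in the second wild-type library were tightly bunched beside HoxC only. Of 21 such flank sites, 9 lay beside HoxC at chr15:102643751-102643789. The 12 beside HoxA were spread over chr6:51632163-52040142, with at most 4 in 1 window of 10 kb. HoxB and HoxD had none in their flanks.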
